A study of Mus musculus with 6 samples.

Results

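The transcripts of 10 genes of the AP-1 family of basic leucine zipper transcription factors were examined in 4T1 cells with and without METTL7A1. The genes were taken by name from the 48587 rows of the deposited counts table. They were the Fos subfamily (Fos, Fosb, Fosl1 and Fosl2), the Jun subfamily (Jun, Junb and Jund), Batf3 of the Batf subfamily, and the small Maf factors Maff and Mafk. 4T1 is a mouse mammary carcinoma line. In the METTL7A1 group, 3 libraries came from cells stably transfected with full-length FLAG-tagged Mettl7a1 cDNA in the vector pBICEP-CMV-2, whose name refers to the CMV promoter, and in the mock group 3 libraries came from cells carrying the empty vector. Both were grown in DMEM/F12 with serum and kept under G418 at 350 μg/ml, so that selection is shared by the controls. The study calls the libraries biological triplicates and does not say whether a condition was 1 clone or a pool, so the p values measure the spread between libraries and not between separately transfected lines. METTL7A1 is a putative methyltransferase, and the study asked what its re-expression does to the transcriptome of tumor cells in which it is almost absent. It reported a limited effect on transcripts at its own thresholds, also measured proteins, and proposes that METTL7A1 regulates the translation of select mRNAs. Only RNA was examined here, so the levels of AP-1 proteins are not known from these data.

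AP-1 is a dimer. Fos proteins cannot pair with themselves and need a Jun partner, whereas Jun proteins can also form homodimers, and the pair binds the TPA response element TGACTCA or the related cAMP response element (CRE) TGACGTCA. Fos, Fosb, Jun and Junb are immediate early genes that serum, growth factors and stress induce within minutes, while Fosl1 and Fosl2 follow later and, in mammary tumor cells, Fosl1 is known for its link to invasion and mesenchymal features. Batf3 and the small Maf factors lack a transactivation domain: Batf3 pairs with Jun proteins and is best known from dendritic cells, and small Maf proteins pair with CNC factors such as NRF2 or with BACH1.

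RefSeq promoter windows (GRCm38.p6, 250 bases before to 50 after the start of transcription) were on hand for 9 of the 10 genes, in 11 windows. The stretches upstream of the start of Fos, Jun, Junb and Maff are shown because these genes stand for the quiet immediate early genes, the subfamily that was lower and the small Maf gene that was higher. Capitals mark TGACGTCA, its first bases TGACG where they stand alone, and TGACATCA, the variant in the Jun promoter. All were searched on both strands, and TGACG overlaps TGACGTCA.
Fos (chr12:85473640-85473889, plus strand): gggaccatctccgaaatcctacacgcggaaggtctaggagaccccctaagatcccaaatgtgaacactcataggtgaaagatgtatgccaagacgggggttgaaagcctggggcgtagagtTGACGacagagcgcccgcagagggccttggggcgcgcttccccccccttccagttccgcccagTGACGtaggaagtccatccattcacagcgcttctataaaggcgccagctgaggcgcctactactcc
Jun (chr4:95052223-95052472, minus strand): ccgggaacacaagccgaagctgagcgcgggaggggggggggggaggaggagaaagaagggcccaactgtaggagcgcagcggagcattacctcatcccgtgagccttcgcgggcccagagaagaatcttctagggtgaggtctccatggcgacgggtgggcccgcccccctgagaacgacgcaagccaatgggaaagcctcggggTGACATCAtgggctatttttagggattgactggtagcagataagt
Junb (chr8:84978749-84978998, minus strand): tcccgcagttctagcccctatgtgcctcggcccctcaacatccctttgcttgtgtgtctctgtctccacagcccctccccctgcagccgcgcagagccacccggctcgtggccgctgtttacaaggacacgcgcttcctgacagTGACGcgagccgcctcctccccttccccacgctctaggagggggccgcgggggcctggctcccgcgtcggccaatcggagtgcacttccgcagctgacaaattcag
Maff (chr15:79347270-79347519, plus strand): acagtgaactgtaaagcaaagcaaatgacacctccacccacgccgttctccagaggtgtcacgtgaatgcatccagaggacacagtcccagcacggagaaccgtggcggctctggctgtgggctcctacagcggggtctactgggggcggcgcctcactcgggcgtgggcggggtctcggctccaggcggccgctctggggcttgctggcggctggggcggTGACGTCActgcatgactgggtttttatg
The Jun window held TGACATCA with its first base 45 bases upstream of the start, and that of Maff held the full CRE 29 bases upstream. A window of Maff that is not shown also held TGACATCA. The short form of the CRE lay 66 and 129 bases upstream of Fos and 106 bases upstream of Junb. It also lay 60 bases upstream of Fosb and 41 bases upstream of Mafk, which are not shown. The windows of Jund, also lower, of Batf3, which was higher, and of Fosl2 held none of these sites. Fosl1 had no window. The part of these sites in the changes was not tested. Of all 32841 windows searched, 3.62% held the Jun variant, 1.79% the CRE and 20.8% its short form. The TPA response element and the CArG box, the site of serum response factor, were in none of the windows of these genes, against 5.2% and 1.63% of all windows, which says only that these letters are not in this stretch.

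The libraries held 18386780 to 28459338 counts. Abundances are given as cpm, a gene's counts scaled to a common library total after TMM scaling. Mettl7a1 lay between 342 and 422 cpm in the METTL7A1 libraries and between 1.17 and 1.64 cpm in mock, so every library followed its label. Of the epithelial markers, Krt8, Krt18, Epcam and Cdh1 were detected at means of 135 to 615 cpm in METTL7A1 cells, and Krt14 was lower there (9.79 against 37.8 cpm). AY036118, an RNA of the ribosomal repeat, ranged from 4970 to 146000 cpm and was lowest of its group in METTL7A1 replicate 1 (4970 cpm) and in mock replicate 3 (8950 cpm).

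All 10 genes had at least 1 cpm in at least 3 libraries and were tested, within a fit over 13166 genes. In METTL7A1 cells, 4 of them fell (Jun, Junb, Jund and Fosl1), 2 rose (Batf3 and Maff), and 4 did not pass the test (Fos, Fosb, Fosl2 and Mafk). A gene was called at a Benjamini-Hochberg adjusted p under 0.05 in edgeR's quasi-likelihood test, a limit that 42.1% of all 13166 tested genes passed, 21.1% as higher and 21% as lower. The share of the 10 genes that was called, 6, is to be read against this background. Batf3 reached the abundance limit only through the METTL7A1 libraries, where it was high, and without it 5 of 9 genes were called. The median log2 fold change of the 10 was 0.1, compared with -0.03 over all tested genes. At the stricter thresholds of the study (adjusted p under 0.01 and a log2 fold change over 1.5 in size), which 2.48% of all genes passed, 1 of the 10 was left, Batf3. The METTL7A1 and mock libraries did not overlap for 7 of the 10, compared with 51.6% of all tested genes.

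**Figure D1:**
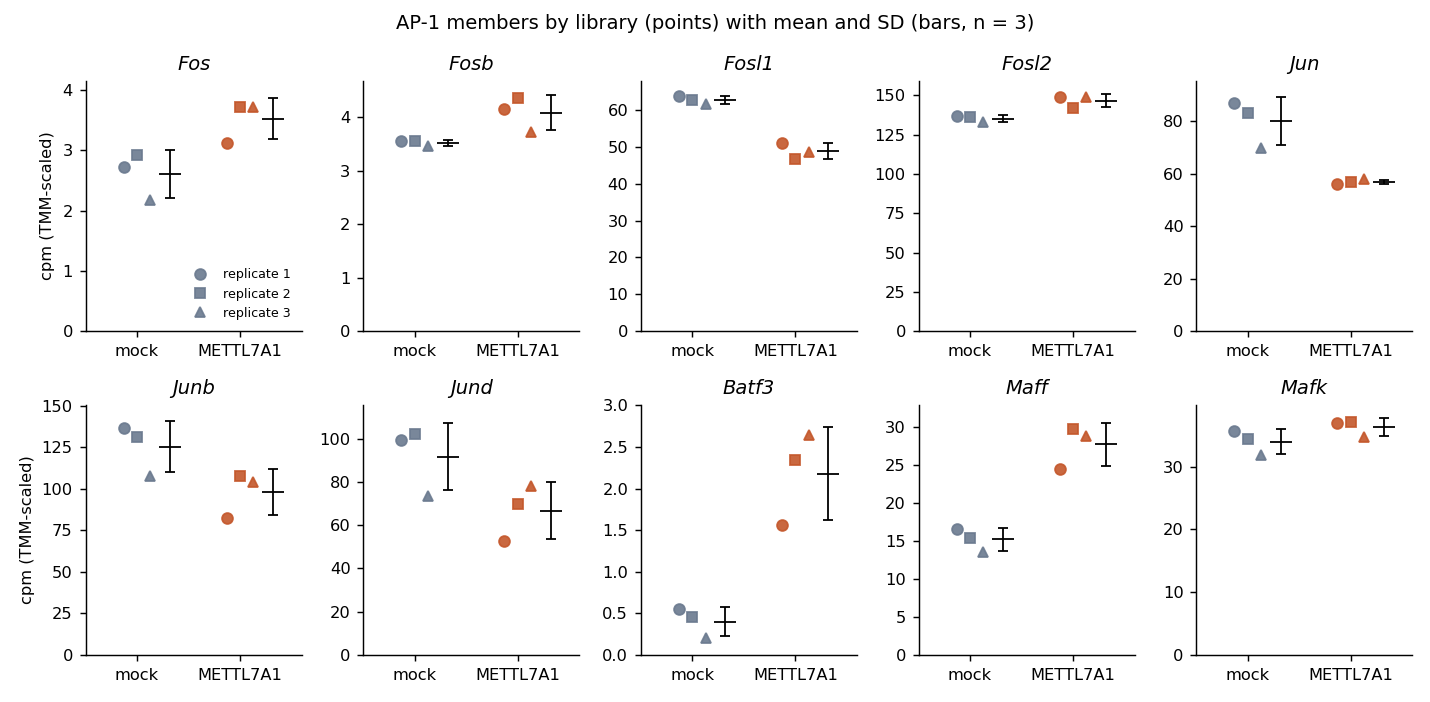
Abundance of each AP-1 gene in the 6 libraries (cpm on TMM-scaled library sizes, axis from 0). Points are libraries, shaped by replicate number, and the bar gives the mean and SD of 3. Jun and Fosl1 are lower in every METTL7A1 library, Batf3 and Maff are higher in every one, and Junb, Jund and Mafk overlap between the groups.

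In the Jun subfamily all 3 genes fell. Jun (chromosome 4, 95049034 to 95052222, a gene of a single exon), the founding AP-1 subunit, had 56.1, 56.7 and 57.8 cpm in METTL7A1 replicates 1 to 3 and 87.1, 83.2 and 69.8 cpm in mock replicates 1 to 3. The METTL7A1 libraries were nearly equal to each other and all lay under the lowest mock library. This was a log2 fold change of -0.49 with a standard error (SE) of 0.09 (edgeR adjusted p = 0.000902), so that mock cells had 1.41 times the METTL7A1 level. Junb (chromosome 8, 84976910 to 84978718), which often restrains Jun at shared sites, had 82.4, 108 and 104 cpm in METTL7A1 and 137, 131 and 108 cpm in mock. Its groups overlapped at mock replicate 3. The difference on the log2 scale was -0.35 (SE 0.11, edgeR adjusted p = 0.0293). Jund (chromosome 8, 70698949 to 70700616), the Jun protein of resting cells, had 52.5, 69.6 and 78.1 cpm in METTL7A1 and 99.6, 102 and 73.7 cpm in mock, with mock replicate 3 under METTL7A1 replicate 3. Jund fell by 0.45 on the log2 scale (SE 0.15, edgeR adjusted p = 0.0276).

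The calls of Junb and Jund depended on single libraries. Both were lowest, within each group, in the library with the least AY036118, METTL7A1 replicate 1 and mock replicate 3. The same was true of Jun, Fos, Batf3 and Maff. The part of this RNA in the differences between the groups was not tested. Without METTL7A1 replicate 1 the log2 fold changes were -0.22 for Junb (edgeR adjusted p = 0.0649) and -0.3 for Jund (edgeR adjusted p = 0.0601). Without mock replicate 1 they were -0.26 and -0.37 (edgeR adjusted p = 0.146 and 0.125), and without mock replicate 2 they were -0.32 and -0.37 (edgeR adjusted p = 0.0785 and 0.0894). The call of Jund was also lost without METTL7A1 replicate 2 (-0.48, edgeR adjusted p = 0.0614), though its log2 fold change was no smaller in size than in the main fit (-0.45). In that fit 3761 of 12927 tested genes were called, against 5537 of 13166 in the main fit. Without mock replicate 3, the other low library, they were -0.43 and -0.58 (edgeR adjusted p = 0.00583 and 0.00325). With the AY036118 level of each library, centred within its group, as a covariate they were -0.35 and -0.46 (edgeR adjusted p = 0.000435 and 9.11e-05). Centred in this way, the covariate takes up spread within groups and leaves the difference between them almost unchanged. Calls over all genes were 6785 with it and 5537 in the main fit. Jun was called in every one of these fits, between -0.57 and -0.41.

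Junb and Jund also lie in stretches of chromosome 8 that were lower in METTL7A1 cells. Among the 40 nearest abundant neighbours the median change was -0.21 on the log2 scale for Junb and -0.15 for Jund, compared with 0.01 for Jun on chromosome 4. After subtraction of this regional level Junb was at -0.14 (SE 0.11, edgeR adjusted p = 0.388) and Jund at -0.3 (SE 0.15, edgeR adjusted p = 0.138), while Jun stayed at -0.5 (SE 0.09, edgeR adjusted p = 0.00111). With an offset for the GC content of the transcripts, which was 67.1% for Jund, the fall of Jund was -0.39 (edgeR adjusted p = 0.0515).

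**Figure D2:**
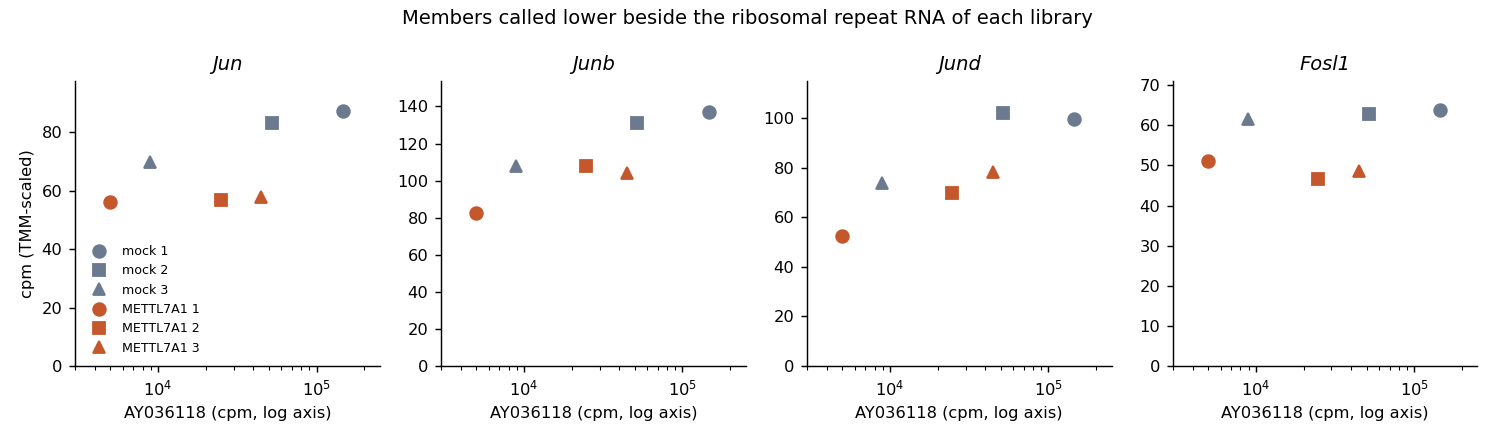
Abundance of the genes called lower (cpm, axis from 0) plotted against AY036118 of the same library (cpm, log axis), with 1 point per library. Jun, Junb and Jund are lowest at the left of each group (METTL7A1 replicate 1 and mock replicate 3), and for Jun and Fosl1 every METTL7A1 library lies under every mock library.

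In the Fos subfamily only Fosl1 passed the test. Fosl1 (chromosome 19, 5447703 to 5455945), which encodes FRA1, had 51.0, 46.7 and 48.7 cpm in METTL7A1 replicates 1 to 3 and 63.7, 62.8 and 61.6 cpm in mock. The groups were well apart and the spread within each was small. Fosl1 was at -0.36 on the log2 scale (SE 0.07, edgeR adjusted p = 0.0013), and it lay between -0.38 and -0.33 in all 16 alternative fits. Fosl2 (chromosome 5, 32135801 to 32157842), which encodes FRA2, had 149, 142 and 149 cpm in METTL7A1 and 137, 136 and 133 cpm in mock. All METTL7A1 libraries were above mock, but by a log2 fold change of only 0.11 (95% interval -0.03 to 0.25, edgeR adjusted p = 0.19).

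The immediate early members Fos and Fosb were low in both groups. Fos (chromosome 12, 85473890 to 85477273) had 3.13, 3.72 and 3.73 cpm in METTL7A1 replicates 1 to 3 and 2.73, 2.93 and 2.17 cpm in mock, from 50 to 110 counts per library. Its log2 fold change was 0.44 (95% interval 0.02 to 0.86), with an unadjusted p of 0.0398 and an edgeR adjusted p of 0.0832. Fosb (chromosome 7, 19302696 to 19310051) had 4.15, 4.37 and 3.73 cpm in METTL7A1 and 3.55, 3.55 and 3.46 cpm in mock, a log2 fold change of 0.21 (95% interval -0.13 to 0.56, edgeR adjusted p = 0.302). All METTL7A1 libraries were above all mock libraries for both genes, but neither difference passed the test. Fos lies on a part of chromosome 12 whose 40 nearest abundant neighbours had a median of -0.48, the lowest of the 10 genes. Relative to them Fos was higher by 0.92 (SE 0.19, edgeR adjusted p = 0.00376), and it was also called with the AY036118 covariate (0.43, edgeR adjusted p = 0.0431). That covariate takes up spread within groups and leaves the difference between them almost unchanged.

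**Figure D3:**
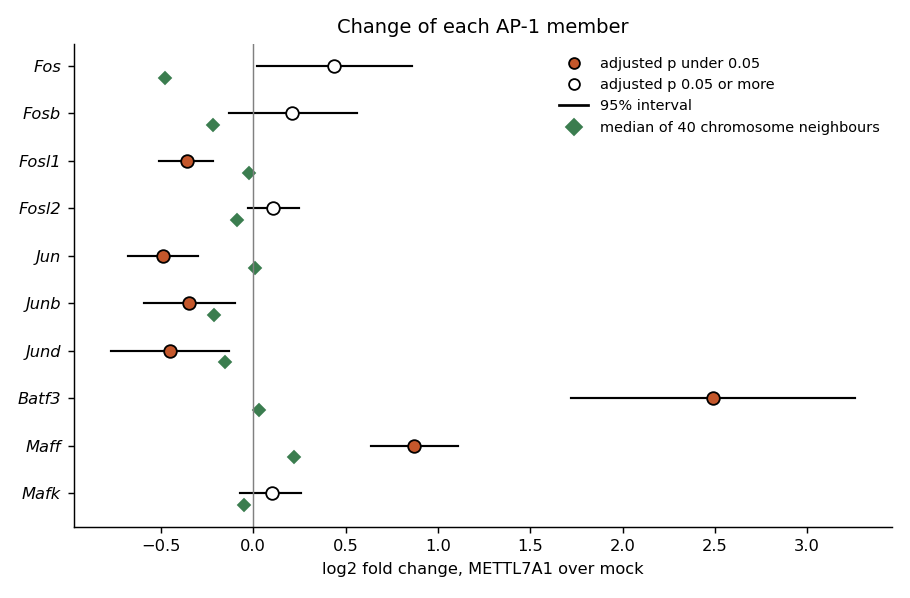
Log2 fold change of METTL7A1 over mock for each gene with its 95% interval. Filled circles passed an adjusted p of 0.05, open circles did not, and diamonds give the median of the 40 nearest abundant neighbours on the chromosome. Batf3 (2.49) and Maff (0.87) stand to the right, the Jun genes and Fosl1 to the left, and for Fos the circle (0.44) and the diamond (-0.48) lie on opposite sides of 0.

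Because longer transcripts collect more reads, levels between genes were compared as cpm per kb of exon. In mock cells the order was Junb (69.2 ± 8.45), Jund (54.9 ± 9.32), Fosl1 (36.7 ± 0.617), Jun (25.1 ± 2.85), Fosl2 (20.8 ± 0.328), Mafk (9.4 ± 0.531), Maff (7.17 ± 0.703), Fos (1.24 ± 0.186), Fosb (0.931 ± 0.0137) and Batf3 (0.5 ± 0.223 cpm per kb, SD, n = 3 each). Junb and Jund overlapped in their ranges, and all other neighbours in this order were apart. In METTL7A1 cells Fosl2 (22.4 ± 0.644) stood above Jun (17.8 ± 0.268), Maff (13.1 ± 1.34) above Mafk (10.0 ± 0.387), and Batf3 (2.72 ± 0.691) above Fos (1.67 ± 0.165) and Fosb (1.08 ± 0.0856 cpm per kb, SD, n = 3 each). The order thus changed places at Jun and Fosl2, at Maff and Mafk, and at Batf3.

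Within the Fos subfamily the share of Fosl1 was lower, and that of Fosl2 higher, in every METTL7A1 library. Fosl1 made up 61.6 ± 0.252% of the summed length-scaled level in mock and 53.2 ± 0.808% in METTL7A1, and Fosl2 34.8 ± 0.1% and 41.7 ± 0.5% (SD, n = 3 each). Fos and Fosb together stayed small, at 2.08 ± 0.28% and 1.56 ± 0.01% in mock and 3.12 ± 0.378% and 2.01 ± 0.201% in METTL7A1 (SD, n = 3 each). Taken from cpm without length scaling, on which the longer Fosl2 collects more reads than Fosl1, the log2 ratio of Fosl1 to Fosl2 was -1.11 in mock and -1.59 in METTL7A1, a difference of -0.47 in which the libraries did not overlap. In the exact two-sided permutation test p was 0.1, the smallest that 3 against 3 libraries allow, and 0.25 when adjusted over the 10 pairs compared within subfamilies. Among the Jun genes Junb held 46.4 ± 1% in mock and 48.4 ± 1.67% in METTL7A1, Jund 36.7 ± 1.5% and 35.5 ± 2.5%, and Jun 16.9 ± 0.503% and 16.1 ± 2.17% (SD, n = 3 each). The log2 ratios of cpm between Jun genes differed between the groups by -0.13 to 0.11, with overlapping libraries (exact two-sided permutation p from 0.3 to 0.9).

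The summed Jun level was 163, 159 and 126 cpm per kb in mock replicates 1 to 3 and 94.6, 119 and 122 cpm per kb in METTL7A1. The summed Fos level was 60.6, 60.0 and 58.4 cpm per kb in mock and 55.2, 52.0 and 54.1 cpm per kb in METTL7A1. On this scale both sums were lower in every METTL7A1 library, and the Jun sum exceeded the Fos sum in all libraries, by 2.15 to 2.69 times in mock and by 1.71 to 2.3 times in METTL7A1. In cpm without length scaling the Fos sums overlapped between the groups, at 197 to 207 cpm in METTL7A1 and 200 to 207 cpm in mock, and the Jun sums did not, at 191 to 240 and 251 to 324 cpm. The lowest Jun sum then lay under the lowest Fos sum.

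**Figure D4:**
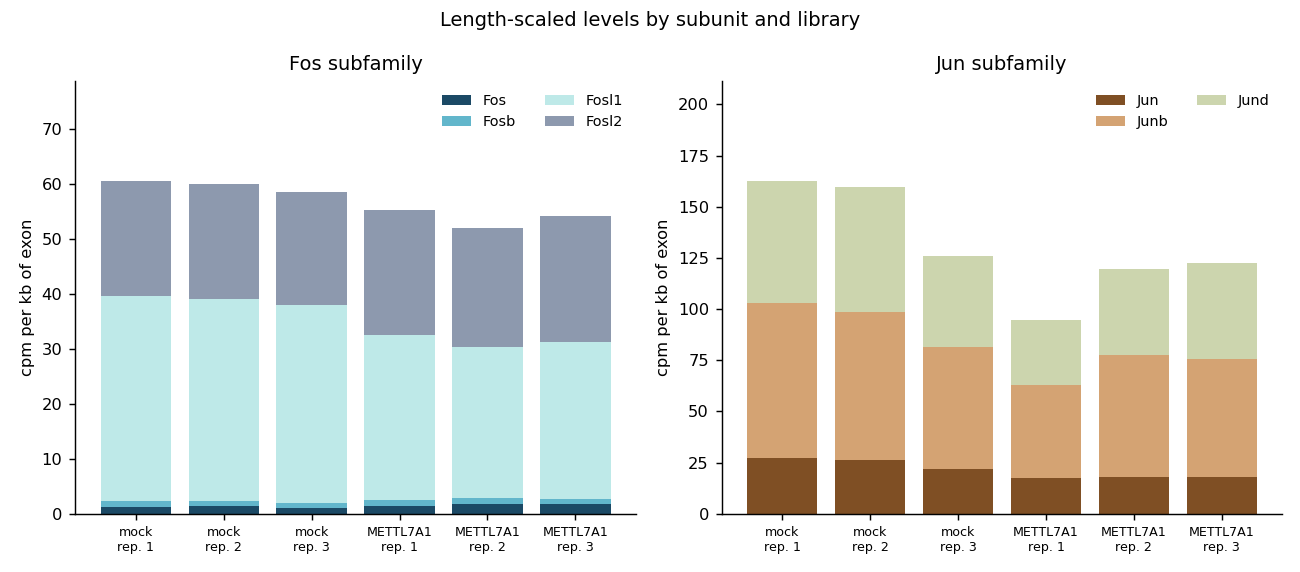
Length-scaled levels (cpm per kb of exon, axis from 0) of the Fos subfamily (left) and the Jun subfamily (right), stacked by gene, with 1 bar per library. The Fosl1 share of the Fos bar is smaller in METTL7A1 (53.2% against 61.6%), and the Jun bar is lowest in METTL7A1 replicate 1 (94.6 cpm per kb).

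The largest change of the 10 was that of Batf3, at a low level. Batf3 (chromosome 1, 191098325 to 191108943) had 1.56, 2.34 and 2.64 cpm in METTL7A1 replicates 1 to 3, from 29, 69 and 65 counts, and 0.547, 0.454 and 0.201 cpm in mock, from 10, 11 and 5 counts. Every METTL7A1 library had well over the counts of the highest mock library. Batf3 rose 5.61-fold (2.49 on the log2 scale, SE 0.35, edgeR adjusted p = 0.00023). Since Batf3 serves dendritic cells, the leukocyte markers are given beside it. Cd3e had 0 counts in every library, a count that allows at most 0.105 cpm in the deepest and 0.163 cpm in the shallowest library, and Ptprc was at 0.232 cpm in METTL7A1 and 0.209 cpm in mock. Cd68 (12.8 against 5.43 cpm) and Csf1r (2.41 against 0.764 cpm) were both called higher. Csf1r, like Batf3, reached the abundance limit only through the METTL7A1 libraries, where it was high. The sum of the leukocyte markers was 14.0 to 16.4 cpm in METTL7A1 and 5.85 to 6.76 cpm in mock. Their part in the rise of Batf3 was not tested. In bulk RNA more cells of a type and more RNA per cell cannot be told apart.

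Among the small Maf genes, Maff rose and Mafk did not pass the test. Maff (chromosome 15, 79347541 to 79359072), the small Maf gene that stress and cytokines induce, had 24.5, 29.8 and 28.8 cpm in METTL7A1 replicates 1 to 3 and 16.6, 15.4 and 13.6 cpm in mock. The lowest METTL7A1 library stood clearly above the highest mock library. Maff rose 1.83-fold (0.87 on the log2 scale, SE 0.11, edgeR adjusted p = 8.07e-05), and by 0.65 relative to its chromosome neighbours (SE 0.11, edgeR adjusted p = 0.000806). Mafk (chromosome 5, 139791513 to 139802653) had 37.0, 37.2 and 34.7 cpm in METTL7A1 and 35.7, 34.4 and 31.9 cpm in mock, with a log2 fold change of 0.1 (95% interval -0.07 to 0.26, edgeR adjusted p = 0.336). The log2 ratio of Maff to Mafk in cpm was -1.17 in mock and -0.4 in METTL7A1, with no overlap of libraries (exact two-sided permutation p = 0.1, 0.25 adjusted over the 10 pairs).

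Of 8 partners of small Maf and Batf proteins, 6 were tested, 4 of them rose and 1 fell. This compares with 21.1% and 21% of all tested genes, and the median log2 fold change was 0.41. Nfe2l1 and Nfe2l2, which encode NRF1 and NRF2, rose by log2 fold changes of 0.52 (SE 0.1, edgeR adjusted p = 0.00187) and 0.39 (SE 0.08, edgeR adjusted p = 0.00174). Bach1, a repressor at the same sites, rose by 0.44 (SE 0.07) and Nfe2l3 was at -0.66 (SE 0.13, edgeR adjusted p = 0.00221). Irf8, a partner of Batf proteins, went from 3.98 ± 0.344 to 7.11 ± 0.991 cpm (SD, n = 3 each), which is 0.85 on the log2 scale (SE 0.16, edgeR adjusted p = 0.00133). Irf4 had 0 counts throughout. Relative to chromosome neighbours Nfe2l2 lost its call (0.16, edgeR adjusted p = 0.142).

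Other AP-1-type factors were looked up as well. Of 11 such genes, 5 were tested and 3 rose, while none fell, beside the same shares of 21.1% and 21% over all tested genes. Atf3, a stress-induced factor that dimerizes with Jun proteins, had 30.4, 32.7 and 33.0 cpm in METTL7A1 and 8.75, 10.1 and 8.45 cpm in mock. Atf3 rose by 1.82 on the log2 scale (SE 0.1, edgeR adjusted p = 2.32e-07), which was past the study thresholds. Jdp2, a Jun dimerization partner that represses AP-1 sites, rose from 10.3 ± 0.861 to 18.6 ± 2.07 cpm (SD, n = 3 each; log2 fold change 0.85, SE 0.11, edgeR adjusted p = 0.000164). Atf2, which pairs with Jun at CRE-like sites, rose by 0.52 (SE 0.07), and Atf7 (0.13, SE 0.12) and Mafg (0.06, SE 0.07) did not pass the test. The fit relative to chromosome neighbours called 4147 of 13166 tested genes in either direction, against 5537 in the main fit. Of the 5 genes it called 4 higher and none lower. Mafg was then at 0.27 (SE 0.07, edgeR adjusted p = 0.0114) and Atf2 at 0.27 (SE 0.07, edgeR adjusted p = 0.0156). Batf had 0 counts in all libraries.

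Of 17 kinases and factors that act on Fos and Jun 16 were tested, of which 3 rose and 2 fell (4 and 0 relative to chromosome neighbours), with a median log2 fold change of 0.11. In the main fit, 3 higher and 2 lower are no more than its shares of 21.1% and 21% of all tested genes would give. Those shares do not apply to the counts relative to chromosome neighbours, where 4147 of 13166 genes were called in either direction. Srf, the factor bound to the Fos promoter in serum induction, went from 50.6 ± 6.9 to 37.1 ± 2.69 cpm (SD, n = 3 each; log2 fold change -0.44, SE 0.1, edgeR adjusted p = 0.00495), but relative to its neighbours it was at -0.26 (edgeR adjusted p = 0.0765). Mapk3, which encodes ERK1, rose by 0.71 (SE 0.16, edgeR adjusted p = 0.00504). Mapk8 and Mapk9, the Jun kinases, were at -0.01 (SE 0.08) and 0.2 (SE 0.06, edgeR adjusted p = 0.0234).

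Of 21 other immediate early genes, 17 were tested, 5 rose and 1 fell (5 and 3 relative to chromosome neighbours), beside 21.1% and 21% of all tested genes, and the median log2 fold change was -0.01. With 42.1% of all genes called in either direction, 6 of 17 is not above the background. These shares belong to the main fit, and the fit relative to neighbours called 4147 of 13166 genes in either direction. Egr1, a zinc finger factor induced with Fos, had 8.24, 9.18 and 8.64 cpm in METTL7A1 and 4.21, 4.46 and 4.39 cpm in mock (log2 fold change 1, SE 0.13, edgeR adjusted p = 0.000124). Dusp1, a phosphatase of the MAP kinases, rose from 7.81 ± 0.566 to 17.2 ± 1.7 cpm (SD, n = 3 each; log2 fold change 1.13, SE 0.11, edgeR adjusted p = 2.34e-05). Ier2, Ier3, Ier5 and Klf6 lay between -0.02 and 0.06, and Klf10 was the gene that fell (-0.39, SE 0.07).

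Most of the tested AP-1 target genes rose. Of 20 textbook targets 19 were tested, 13 rose and 1 fell, against 21.1% and 21% of all tested genes, and the median log2 fold change was 0.38. The list was drawn up with earlier results of these data known and carries no test of its own. Mmp13, a collagenase with an AP-1 site in its promoter, had 5.17, 6.64 and 6.57 cpm in METTL7A1 and 1.09, 1.11 and 1.69 cpm in mock (log2 fold change 2.22, SE 0.21, edgeR adjusted p = 1.76e-05). Spp1, which encodes osteopontin, had 283, 362 and 383 cpm in METTL7A1 and 116, 141 and 125 cpm in mock (log2 fold change 1.43, SE 0.12, edgeR adjusted p = 5.16e-06). Vegfa rose by 1.16 (SE 0.1, edgeR adjusted p = 9.44e-06) and the stromelysin Mmp3 by 0.99 (SE 0.1, edgeR adjusted p = 2.09e-05). For each of these 4 genes the groups were fully apart. Timp1, an inhibitor of metalloproteinases, was the target that fell (-0.5, SE 0.12). Ccnd1 (-0.14, SE 0.11), Cd44 (-0.02, SE 0.09) and Plaur (-0.04, SE 0.09) did not pass the test. Between 11 and 14 targets were called higher in the alternative fits. The count was 12 relative to chromosome neighbours, where 4147 of 13166 genes were called in either direction.

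**Figure D5:**
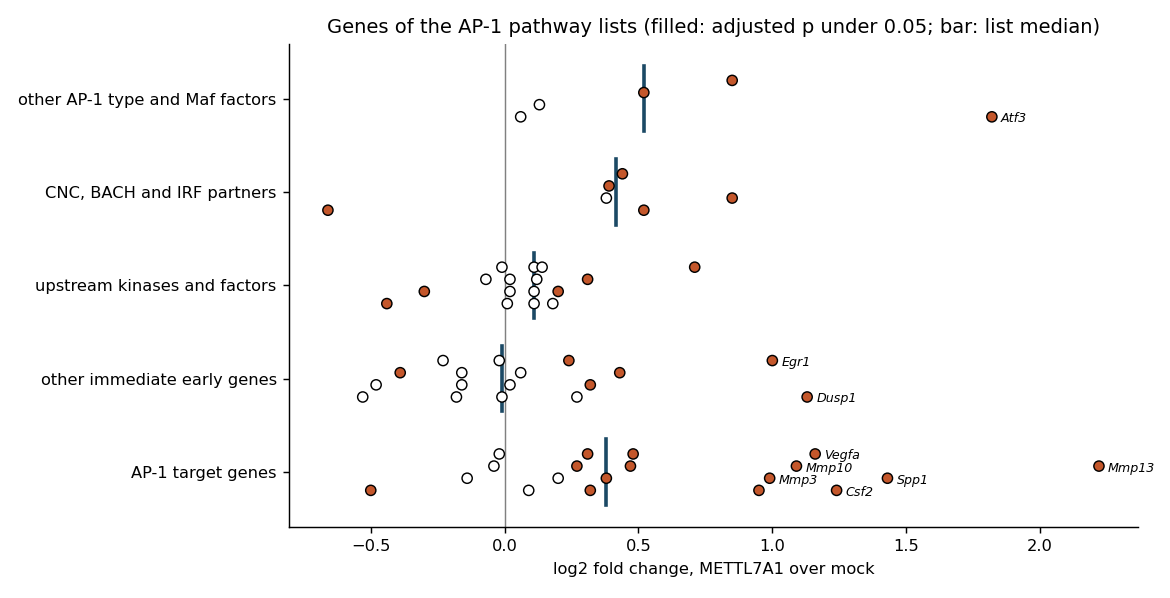
Log2 fold change of METTL7A1 over mock for each tested gene of 5 lists around AP-1. Filled points passed an adjusted p of 0.05, the vertical bar is the list median, and genes beyond 0.98 in size are named. The target genes centre on 0.38 with Mmp13 farthest out (2.22), and the other immediate early genes centre on -0.01.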

How the data were processed

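Total RNA of 4T1 cells was measured in 6 stranded, ribosome-depleted libraries, 3 per group, with groups taken from the sample titles. The authors trimmed reads with BBDuk, aligned read pairs to mm10 with STAR 2.5.3a (per the submitters' processing notes and the methods), and assigned them to genes with featureCounts. They deposited raw counts per gene with each gene's total exon length. The settings for strand and multiply mapped reads are not given in the sources used here. On the opposite strand, Jund shares exon bases with Gm11175 (at most 42 counts) and Mafk with Tmem184a (at most 479 counts), which could matter if reads were counted without strand.

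The statistics were run in edgeR 4.0.16 under R 4.3.3. A gene was kept if 3 or more libraries reached 1 cpm, libraries were scaled by TMM, and METTL7A1 was compared with mock by the quasi-likelihood test without covariates, adjusted over all 13166 genes by Benjamini-Hochberg. SEs are the size of the log2 fold change divided by the square root of F, and 95% intervals use its t distribution. The biological coefficient of variation was 0.0915. Alternatives were RLE and upper quartile scaling, other filters, a replicate block, omission of each library, DESeq2 1.42.0, limma 3.58.1 (voom), and an offset for the median of 40 chromosome neighbours with an average log2 cpm over 2. The AY036118 covariate, the GC offset (GC known for 97.1% of tested genes) and the counts of targets under the alternatives were chosen after seeing the data. In simulated counts for 13166 genes of this comparison, 200 genes were changed. Of those changed by 1 on the log2 scale 95.1% were recovered, and of those changed by 2, 100%. Changes under 1 were not simulated, while the genes called in the data had a median absolute log2 fold change of 0.476.

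The members and gene lists were chosen with earlier results of these data known. The text names all 10 members, at most 5 called genes per list with the smallest adjusted p, and genes that bear on a result. Some genes that the lists or this rule include are not reported here. Mapk8, Atf7, Mafg, Irf4, Batf, Ier2, Ier3, Ier5, Klf6, Timp1, Ccnd1, Cd44 and Plaur were named after their values were seen. Counting error and limits on counts of 0 (3 counts of the library total) cover sampling of reads only.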

Additional observations from a re-analysis of the deposited data

How the results depend on the processing

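The count of 6 members called stayed within 1.5 times under RLE and upper quartile scaling, no filter, at least 10 counts in every library, DESeq2, voom, the neighbour offset, the AY036118 covariate and the GC offset (5 to 7). With the study thresholds it was 1. With a library left out it ranged from 3 to 6, with 1 to 2 higher and 2 to 4 lower, the smallest (3) without METTL7A1 replicate 1. Batf3 was not tested without any METTL7A1 library or with at least 10 counts in every library, where 1 member was called higher, since its counts fall under those filters. With the neighbour offset 4147 of 13166 genes were called in either direction, against 5537 in the main fit. Of the members 4 were then higher and 2 lower. Fos and Fosl2 (0.2, edgeR adjusted p = 0.0365) gained a call, and Junb and Jund lost theirs. The cause was not tested. No member changed direction in any fit. The count of 13 targets called higher ranged from 11 to 14 with a library left out.

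The sources do not say whether same-numbered libraries were paired, and the main fit did not pair them. Their deviations from the group means correlated at -0.16, 0.23 and -0.39 for replicates 1 to 3. With replicate number as a block, 6 members were called (2 higher and 4 lower), 4810 of all genes and 13 targets called higher, against 6, 5537 and 13. The log2 fold changes under the block were 0.44 for Fos, -0.35 for Junb and -0.46 for Jund. Fos, Fosb and Batf3 stayed under 5 cpm in every library, which limits what can be resolved for them.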

Other observations

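Fos, Jdp2 and Batf lie together on chromosome 12, with Jdp2 starting 122 kb and Batf 209 kb beyond the end of Fos. Around this place most genes were lower in METTL7A1 cells (median log2 fold change of the 40 nearest abundant neighbours -0.48 at Fos). Relative to that level Jdp2 was higher by 1.34 (SE 0.11, edgeR adjusted p = 7.32e-06) and Fos by 0.92 (SE 0.19, edgeR adjusted p = 0.00376), and Batf had 0 counts.

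The deviations of Fos from its group means over the 6 libraries were closely matched by those of Pdp1, Nipa2, Gfer and Chst14 (Pearson's r from 0.9992 to 0.9994), which were among the 5 most alike of 11660 tested genes that averaged 50 counts or more. None of these 4 is on the list of immediate early genes.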
